A study of Mus musculus with 6 samples.

Results

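Toll-like receptors are membrane proteins that recognise microbial products, and this account describes 6 of them in human leukemic cells, TLR1, TLR2, TLR4, TLR7, TLR8 and TLR9. It also describes 4 proteins that serve such receptors, the signalling proteins MYD88, IRAK1 and IRAK4 and UNC93B1, which serves only the endosomal ones among the 6. The genes were picked by name for their roles, with earlier results of these data known, and all 10 were found among the 13892 genes of the expression table and were tested. The cells came from NSG mice, an immunodeficient strain, whose marrow had been colonised by human blood stem cells carrying introduced NPM1c, the mutant nucleophosmin of acute myeloid leukemia (AML). Each of 3 mice stood for 1 separate transduction, was moribund at harvest and gave 2 sorted populations, which makes 3 bulk and 3 leukemic stem cell (LSC) libraries. Bulk cells were sorted as GFP+ and CD33+, and LSC as GFP+, CD33+ and CD123+. GFP reported the transgene in both populations, so both carried NPM1c, and no population lacked it. The bulk gate set no condition on CD123, so bulk cells could include CD123+ cells. No age of the animals is given in the sources used here.

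Toll-like receptors fall into groups by where they meet their ligands. TLR1, TLR2 and TLR4 sit at the cell surface, where TLR4 senses lipopolysaccharide and TLR2, paired with TLR1 or TLR6, senses bacterial lipoproteins. TLR7, TLR8 and TLR9 sit in endosomes and sense nucleic acids, RNA in the case of TLR7 and TLR8 and unmethylated CpG DNA in the case of TLR9, and UNC93B1 carries them there from the endoplasmic reticulum. After ligand binding these receptors recruit the adaptor MYD88, which assembles the kinases IRAK4 and IRAK1. In blood cells TLR7 and TLR9 are best known from plasmacytoid dendritic cells and B cells, and TLR2, TLR4 and TLR8 from monocytes and neutrophils.

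Levels are in CPM, read counts scaled to a common normalized library size, and are comparable between libraries for 1 gene but not between genes, since gene lengths were not used. Libraries held 10669560 to 14933494 reads, of which 27.2% to 70.0% lay on 10 MTRNR2L rows. Bulk replicate 1 had the fewest reads outside these rows (3423878, against 6132431 to 9571165), and in it 3 reads corresponded to 0.514 CPM, against 0.190 to 0.254 CPM in the others. IL3RA, which encodes CD123, stood at 1.56 to 2.39 CPM in bulk and at 48.0 to 139.5 CPM in LSC, which follows the gate. In sorted bulk samples a change in the number of cells of a type and a change in RNA per cell cannot be told apart.

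TLR7 was far higher in LSC than in bulk. It stood at 4.81, 7.39 and 27.0 CPM in bulk replicates 1, 2 and 3, from 28, 87 and 422 reads. In LSC replicates 1, 2 and 3 it stood at 214, 129 and 227 CPM, from 2894, 2037 and 3115 reads. Every LSC library lay above every bulk library, and bulk replicate 3 was the highest of the bulk libraries. Group means were 13.1 ± 12.1 CPM in bulk and 190.1 ± 53.2 CPM in LSC (SD, n = 3). The log2 change was 4.22 (SE 0.58, limma adjusted p = 0.00571), an 18.7-fold difference. Within mice 1, 2 and 3 the LSC level was 44.4, 17.5 and 8.41 times the bulk level. Among the 13755 genes tested TLR7 ranked 106 by increase. Leaving out both libraries of mouse 1 or of mouse 2 ended the call without a block (adjusted p = 0.104 and 0.0667, log2 change 3.60 and 4.27), while no single library did. With the mouse as a term, which compares the libraries within each mouse, the adjusted p was 0.000465 over 3 mice, 0.00164 without mouse 1 and 0.0126 without mouse 2. A blocked fit on 2 mice has very few residual degrees of freedom, so its p rests largely on variance shared across genes. That limit holds for every blocked fit here that leaves out a mouse.

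TLR9 rose alongside TLR7. Bulk replicates 1, 2 and 3 had 3.10, 2.22 and 20.6 CPM, the first 2 of them from only 18 and 26 reads. LSC replicates 1, 2 and 3 had 56.8, 71.7 and 172 CPM, and again the groups did not overlap. Means were 8.63 ± 10.3 CPM in bulk and 100.2 ± 62.7 CPM in LSC (SD, n = 3), a log2 change of 4.09 (SE 0.78, limma adjusted p = 0.0235) and a 17.0-fold difference. The LSC level was 18.3, 32.3 and 8.37 times the bulk level in mice 1, 2 and 3. Mouse 3 had the highest TLR9 level in both populations. The call on TLR9 was lost when any 1 of 4 libraries was left out (replicates 1 and 2 of bulk, 1 and 3 of LSC, in that order), with an adjusted p of 0.0791, 0.0653, 0.0546 and 0.0741 and a log2 change of 3.72, 3.48, 4.41 and 3.61. Unblocked, TLR9 also missed the threshold without both libraries of mouse 1 or of mouse 2 (0.190 and 0.140). In the blocked fit TLR9 passed over 3 mice (adjusted p = 0.000386) and, under the same limit as for TLR7, without mouse 1 (0.00285) and without mouse 2 (0.00842). Without bulk replicate 3 the unblocked log2 change was 4.95 for TLR7 and 5.08 for TLR9 (adjusted p = 0.000652 and 0.0016).

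**Figure D1:**
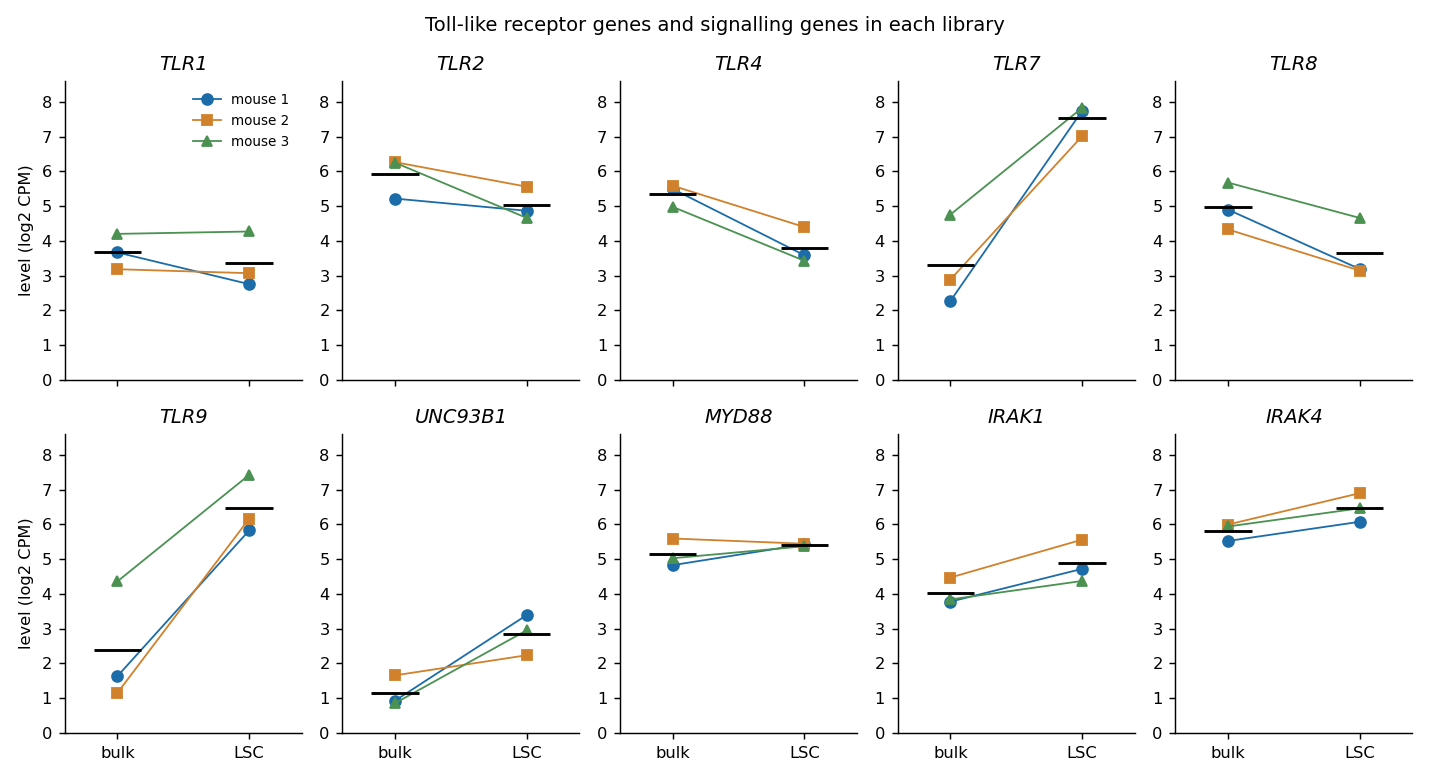
Level of each of the 10 genes on the vertical axis (log2 CPM) in bulk and LSC libraries on the horizontal axis, with 1 symbol and line per mouse and a black bar at the group mean. TLR7 and TLR9 rise steeply in all 3 mice, TLR4 and TLR8 decline in all 3, and MYD88 sits between 5.37 and 5.45 in every LSC library.

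TLR8, the third endosomal receptor, did not follow TLR7 and TLR9. TLR8 and TLR7 are neighbouring genes on the X chromosome. TLR8 in mice 1, 2 and 3 measured 29.8, 20.1 and 51.1 CPM in bulk cells, against 9.11, 8.83 and 25.3 CPM in LSC. LSC replicate 3 lay above bulk replicate 2, so the groups overlapped, but the level was lower in LSC in each of the 3 mice, by 3.27, 2.27 and 2.02 times. The log2 change was -1.30 (SE 0.51, limma adjusted p = 0.195). A blocked fit, with the mouse as a term so that libraries are compared within each mouse, called TLR8 as lower (SE 0.28, adjusted p = 0.0166). That call was lost without mouse 1 (adjusted p = 0.133) and without mouse 2 (0.0842).

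The balance between receptors was then taken within each library. The log2 level of TLR7 minus that of TLR8 was -2.63, -1.44 and -0.92 in the bulk cells of mice 1, 2 and 3. In their LSC it was 4.55, 3.87 and 3.17. The difference was larger in LSC in every mouse, and the group means lay 5.53 apart. Its sign within a library depends on gene lengths, which were not used, so only the shift between populations can be read. For TLR9 minus TLR4 the means were -2.97 ± 2.06 in bulk and 2.67 ± 1.18 in LSC (SD, n = 3). For TLR7 minus TLR9 they were 0.92 ± 0.71 and 1.05 ± 0.78. Over these 3 pairs, chosen after their levels were seen, the exact two-sided permutation p was 0.1, 0.1 and 0.7, and 0.15, 0.15 and 0.7 after Benjamini-Hochberg adjustment. The smallest p that 3 libraries against 3 allow is 0.1.

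UNC93B1, the trafficking chaperone of the endosomal receptors, was low in all libraries. Bulk cells of mice 1, 2 and 3 gave 1.90, 3.15 and 1.81 CPM (11, 37 and 28 reads). Their LSC gave 10.5, 4.71 and 7.75 CPM (142, 74 and 106 reads). The groups did not overlap, although LSC replicate 2 came near bulk replicate 2: the exact 95% counting intervals were 3.68 to 5.89 CPM and 2.21 to 4.32 CPM. Its log2 change was 1.71 (SE 0.53, 95% interval 0.53 to 2.90), and it did not pass (limma adjusted p = 0.111, or 0.055 in the blocked fit). Such intervals cover counting error only.

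None of the surface receptors TLR4, TLR2 and TLR1 passed in the reported fit, and all 3 had a negative change. TLR4 in mice 1, 2 and 3 measured 45.0, 48.0 and 31.5 CPM in bulk cells, against 11.99, 21.1 and 10.7 CPM in LSC. All LSC libraries lay below all bulk libraries, with means of 14.6 ± 5.64 and 41.5 ± 8.82 CPM (SD, n = 3). The log2 change was -1.55 (SE 0.37) and narrowly missed the threshold (limma adjusted p = 0.052). TLR4 fell in the blocked fit (adjusted p = 0.00703), a call that was lost without mouse 1 (0.0703). It also passed without the block under a filter of 5 CPM, with log2(CPM + 1), under quantile or upper-quartile scaling and without LSC replicate 2, at an adjusted p of 0.0375 to 0.0478. In 13 of 22 alternative settings TLR4 did not pass. Unblocked, these included voom (adjusted p = 0.0635), no variance trend (0.111) and the loss of any other single library (0.0585 to 0.193). They also included the loss of both libraries of any mouse (0.110 to 0.351).

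TLR2 and TLR1, which pair with each other, passed neither in the reported fit nor with the mouse as a term. TLR2 in mice 1, 2 and 3 measured 37.2, 76.9 and 76.1 CPM in bulk cells, against 29.1, 47.1 and 25.3 CPM in LSC. It was lower in LSC in each mouse, but LSC replicate 2 lay above bulk replicate 1. The log2 change was -0.88 (95% interval -1.76 to -0.0036, limma adjusted p = 0.245, or 0.0654 in the blocked fit). TLR1 in mice 1, 2 and 3 measured 12.7, 9.08 and 18.4 CPM in bulk cells, against 6.74, 8.39 and 19.3 CPM in LSC. Mouse 3 was highest in both populations, and of the variation of TLR1 between the 6 libraries 78.2% lay between mice and 7.85% between populations, as shares of the sum of squares. Its log2 change was -0.32 (95% interval -1.42 to 0.78, adjusted p = 0.752). For TLR7 the same shares were 7.57% between mice and 87.7% between populations, and the medians over all genes tested were 43.8% and 26.8%.

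None of the shared signalling genes MYD88, IRAK4 and IRAK1 passed. MYD88, the adaptor, in mice 1, 2 and 3 measured 28.4, 48.4 and 32.6 CPM in bulk cells, against 43.1, 43.6 and 41.4 CPM in LSC. Its LSC libraries lay inside the bulk range and close together (SD 1.12 CPM, against 10.5 CPM in bulk). The log2 change was 0.26 (95% interval -0.43 to 0.96, limma adjusted p = 0.667). IRAK4, the kinase that starts the cascade, in mice 1, 2 and 3 measured 46.1, 64.0 and 61.5 CPM in bulk cells, against 67.6, 119.5 and 88.4 CPM in LSC. The IRAK4 groups did not overlap, and the log2 change of 0.66 (SE 0.31) did not pass (adjusted p = 0.272, or 0.0663 with the block). IRAK1, its substrate kinase, in mice 1, 2 and 3 measured 13.7, 22.2 and 14.4 CPM in bulk cells, against 26.4, 47.3 and 20.7 CPM in LSC. IRAK1 was 1.92, 2.13 and 1.44 times higher in LSC within mice 1, 2 and 3, but LSC replicate 3 lay below bulk replicate 2 (log2 change 0.86, SE 0.40, adjusted p = 0.268, or 0.0613 with the block).

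**Figure D2:**
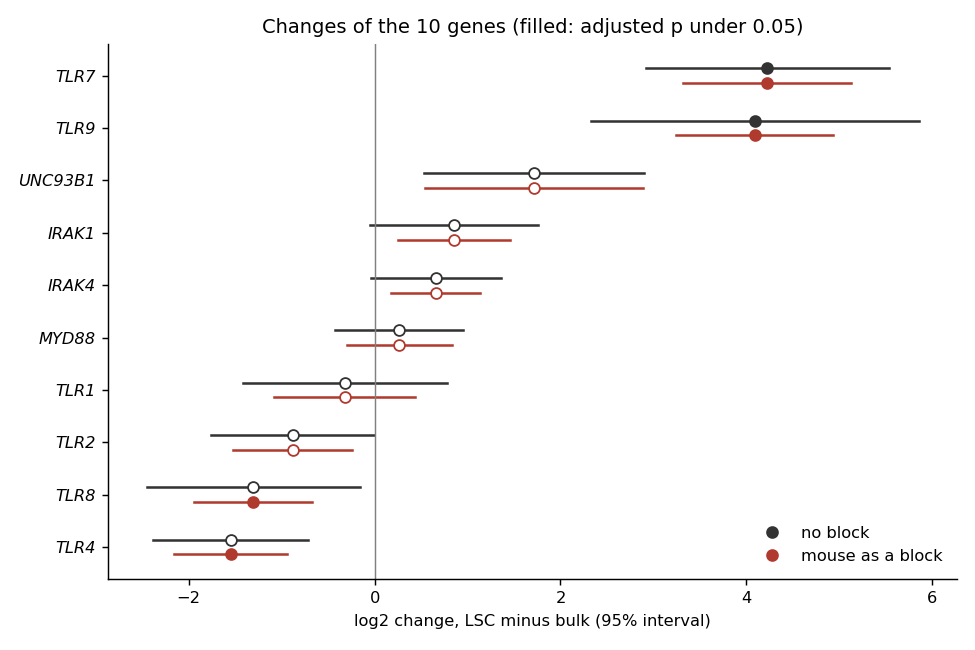
Log2 change from bulk to LSC on the horizontal axis for each of the 10 genes, with 95% intervals, without a block (black) and with the mouse as a block (red). Filled points passed an adjusted p of 0.05: TLR7 at 4.22 and TLR9 at 4.09 in both fits, and TLR4 at -1.55 and TLR8 at -1.30 in the blocked fit.

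Counted together, 2 of the 10 genes rose (TLR7 and TLR9), none fell and 8 did not pass. Over all 13755 genes tested 2.71% were called higher and 1.33% lower. None of the 10 was called lower by limma without the block, while 3 (TLR2, TLR4 and TLR8) had a negative change at an unadjusted p under 0.05 in that fit. With the mouse as a block 2 rose and 2 fell (TLR4 and TLR8), against 8.25% and 7.71% of all genes. LSC libraries lay wholly above bulk for 4 genes (TLR7, TLR9, UNC93B1 and IRAK4) and wholly below for 1 (TLR4), against 13.2% and 11.9% of all genes. In 3 of 3 mice 5 genes were higher and 3 lower in LSC, against 27.3% and 25.8% of all genes. The median log2 change of the 10 was 0.46, beside -0.0036 over all genes. The lowest false discovery rate of any gene in the authors' deposited table is 0.0813, above 0.05. That of TLR7 is 0.0867 and that of TLR9 0.0916 in the authors' deposited table.

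Markers of other cell types moved with these results, and their part in the results was not tested. Of 15 plasmacytoid dendritic cell markers 14 rose in LSC, against 2.71% of all genes tested. Among them was IL3RA, whose rise follows the CD123 gate. The markers were listed with earlier results of these data known, so the count is a description and not independent support. The summed level of the 15, IL3RA included, was 163 to 390 CPM in bulk and 2667 to 4645 CPM in LSC. CLEC4C, a surface lectin that defines plasmacytoid dendritic cells, stood at 2.07 to 3.54 CPM in bulk and 80.2 to 126.8 CPM in LSC. LILRA4, another of their receptors, had no read in bulk replicates 1 and 2. Among LSC libraries replicate 2 had the lowest summed level of these markers and the lowest TLR7 level, whereas TLR9 was lowest in LSC replicate 1. B lineage markers (11 in the table, of 12 listed) summed to 255, 173 and 1149 CPM in the bulk cells of mice 1, 2 and 3, against 56.1 to 103 CPM in LSC. Bulk replicate 3 was thus the bulk library highest in B lineage markers and in TLR7 and TLR9. It was also highest in summed plasmacytoid markers, at 390 CPM, 230 of them from TCF4, against 163 and 170 CPM in bulk replicates 1 and 2. By mean log2 CPM those markers were highest in bulk replicate 2 (1.36, against 1.32 in replicate 3). PAX5, which defines the B lineage, stood at 491 CPM in bulk replicate 3, against 59.9 and 127 CPM in the other bulk libraries. In LSC it stood at 6.99 to 18.5 CPM, and no B lineage marker was without a read there.

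Monocyte and neutrophil markers had negative changes, as TLR4 did. Over all 13755 genes tested 6909 had a negative change, and 1.33% were called lower, 7.71% with the block. Monocyte markers (11 in the table, of 13 listed) summed to 3632 to 5760 CPM in bulk and 1029 to 2711 CPM in LSC. LYZ alone gave 2505 to 4500 CPM in bulk and 856 to 2210 CPM in LSC, most of each sum. Of the monocyte markers 10 of 10 tested had a negative change, of which 1 passed and 6 with the mouse as a block. In 3 of 3 mice 8 were lower in LSC. MS4A7 was higher in LSC in 2 mice and FCGR3A in mouse 3, by 8.31 times. Granule and neutrophil markers (11 of 11) summed to 1640, 3576 and 167 CPM in the bulk cells of mice 1, 2 and 3, against 582, 1193 and 95.5 CPM in their LSC. All 11 had a negative change and none passed without the block, 6 with it. Only 7 were lower in LSC in 3 of 3 mice. In mouse 3 the LSC level of CAMP, FCGR3B, LTF and CEACAM8 was 11.8, 2.69, 2.19 and 1.55 times the bulk level. MPO, the granule peroxidase that defines this list, was lowest in both libraries of mouse 3, at 103 and 12.7 CPM. In the bulk cells of mice 1, 2 and 3 MPO gave 871, 2344 and 103 CPM, most of each bulk sum. TLR8 was highest in mouse 3 in both populations. Negative changes were not particular to these 2 lists. Of 10 B lineage markers tested 9 had a negative change and 2 fell, 4 with the mouse as a block. Of 8 erythroid markers all 8 had a negative change and 2 fell, 6 with the block. The median log2 change was -1.99 for B lineage and -2.94 for erythroid markers, beside -1.47 for monocyte and -1.74 for granule and neutrophil markers. Erythroid markers summed to 116 to 412 CPM in bulk and 18.7 to 103 CPM in LSC. Rises with the block were not particular to plasmacytoid markers. Conventional dendritic cell markers summed to 37.6 to 44.3 CPM in bulk and 67.9 to 78.1 CPM in LSC, with a median log2 change of 0.90. Of 6 tested none passed without the block and 3 (CLEC10A, CCR7 and LAMP3) rose with it, against 8.25% of all genes. T and NK cell markers summed to 79.2 to 112 CPM in bulk and 108 to 141 CPM in LSC. Of 7 tested none passed in either fit, with a median log2 change of 0.51.

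**Figure D3:**
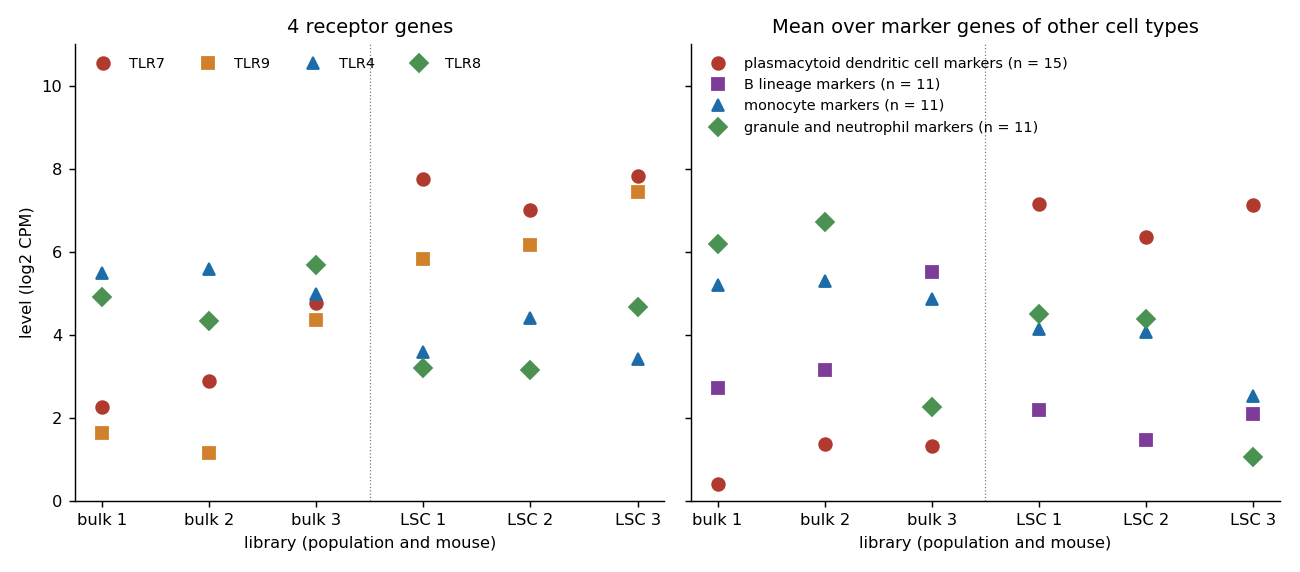
Left, level of 4 receptor genes in each library (log2 CPM). Right, mean log2 CPM over marker genes of 4 cell types in the same libraries. TLR7 and TLR9 in LSC stand beside a plasmacytoid mean of 6.35 to 7.15, which includes the gate gene IL3RA. Bulk replicate 3 has the highest B lineage mean, 5.51.

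The rest of the pathway was read from 6 lists of 103 symbols, of which 87 were tested. Of these 87 genes 10 rose and none fell, with a median log2 change of 0.34, against 2.71% higher and 1.33% lower over all genes tested. With the mouse as a block 18 rose and 6 fell, against 8.25% and 7.71% of all genes. Falls were thus no more frequent than over all genes in either fit. Changes over all genes tested were positive in 6846 and negative in 6909. The same shares and counts stand beside the counts of each list below. Of the 10 that rose, 5 (PACSIN1, LAMP5, IRF7, IRF8 and SPIB) also stood on the list of plasmacytoid dendritic cell markers. Of the block calls described below, those of CD180, CD36, WDFY1, RAB7A, HMGB1, JUN, SOCS3 and IL10 were lost both without mouse 1 and without mouse 2, that of CNPY3 without mouse 2 and that of PLD4 without mouse 1. No list was tested as a whole.

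Among the other receptors none passed without the block, of 3 tested. TLR10, a relative of TLR1 and TLR6, stood at 23.2 ± 16.7 CPM in bulk and 76.2 ± 29.3 CPM in LSC (SD, n = 3; log2 change 1.89, limma adjusted p = 0.0765). In the blocked fit TLR10 rose (adjusted p = 0.00307). TLR6, the other partner of TLR2, stood at 25.3 ± 6.39 and 25.1 ± 6.93 CPM, a log2 change of -0.02 whose sign changed in 6 of 22 alternative settings. TLR5, the flagellin receptor, had 5.17 ± 1.88 and 1.62 ± 1.35 CPM (log2 change -2.61, SE 1.20, adjusted p = 0.259). The size of that change rests largely on LSC replicate 3, which had 1 read of TLR5. Within mice 1, 2 and 3 the log2 change of TLR5 was -1.35, -0.27 and -6.21. TLR1, TLR6 and TLR10 share much of their sequence, so reads could be assigned to the wrong one.

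Of 9 co-receptors and chaperones tested none passed without the block and 3 rose with it. CNPY3, which folds Toll-like receptors, stood at 7.98 ± 4.70 CPM in bulk and 24.1 ± 1.38 CPM in LSC (log2 change 1.80, limma adjusted p = 0.0826, or 0.021 with the block). CD180, a receptor-like protein of B cells and dendritic cells, stood at 31.1 ± 25.6 and 80.2 ± 11.5 CPM (adjusted p = 0.104, or 0.0236 with the block). CD36, a scavenger receptor that works with TLR2, stood at 180.1 ± 53.2 and 381 ± 132 CPM (adjusted p = 0.148, or 0.00688 with the block). SIGIRR, an inhibitor of the family, had 1.91 ± 0.74 and 0.65 ± 0.44 CPM and did not pass in either fit (adjusted p = 0.329 and 0.251).

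Of 19 tested genes listed under endosomal handling 5 rose and none fell, with a median log2 change of 0.16. SLC15A4, an endolysosomal transporter needed for TLR7 and TLR9 signalling, rose from 11.6 ± 2.21 to 134.7 ± 40.3 CPM (SD, n = 3; log2 change 3.51, SE 0.33, limma adjusted p = 0.000979). CXorf21, a binding partner of SLC15A4, did not pass, at 61.6 ± 9.69 and 76.3 ± 8.76 CPM (adjusted p = 0.55). LGMN and CTSB, lysosomal proteases of the kind that process these receptors, also rose. LGMN stood at 7.91 ± 1.33 CPM in bulk and 77.6 ± 23.7 CPM in LSC, and CTSB at 50.3 ± 12.6 and 204 ± 46.2 CPM (adjusted p = 0.00145 and 0.00944), with calls lost in 1 and 3 of 22 alternative settings, none of them the loss of 1 library. LAMP5, a lysosomal membrane protein of plasmacytoid dendritic cells, rose from 2.18 ± 1.98 to 154 ± 59.7 CPM. PACSIN1, an endocytic adaptor, rose from 0.112 ± 0.0962 to 36.6 ± 13.4 CPM, and its fitted log2 change of 8.84 depends on the offset the log2 values carry. PLD4, an endosomal nuclease, rose with the block (log2 change 2.82, adjusted p = 0.0334) and with log2(CPM + 1), but not in the reported fit. WDFY1, RAB7A and HMGB1 fell with the block, with log2 changes of -1.28, -0.85 and -0.88 and an adjusted p of 0.0112, 0.02 and 0.0183.

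Among adaptors and kinases none of 26 passed without the block (3, IRAK3, IKBKE and PELI2, were under an unadjusted p of 0.05). With the block 2 fell, near the share of 7.71% over all genes tested. Changes went both ways, 15 positive and 11 negative, around a median log2 change of 0.06. IRAK3, an inhibitory member of the IRAK family found in monocytes and macrophages, stood at 149 ± 46.3 CPM in bulk and 50.9 ± 30.8 CPM in LSC (SD, n = 3). Without the block it missed the threshold (log2 change -1.72, SE 0.52, limma adjusted p = 0.104), but it fell with the block (adjusted p = 0.00404), as it did in each fit with the block that left out 1 mouse. PELI2, a ubiquitin ligase that acts on IRAK proteins, stood at 72.1 ± 38.3 and 27.3 ± 12.5 CPM and also fell with the block (adjusted p = 0.0101), a call lost without mouse 1 (0.0774). TRAF6, the ligase that IRAK1 engages, had 51.2 ± 13.0 and 52.7 ± 5.47 CPM (log2 change 0.07, adjusted p = 0.92). IKBKE, a kinase related to TBK1, and TRAF3, which links TLR7 and TLR9 to interferon genes, had log2 changes of -2.29 and 0.67 (adjusted p = 0.138 and 0.322).

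Among 12 transcription factors 3 rose, none fell and 11 had a positive change. IRF7, which drives type I interferon genes downstream of TLR7 and TLR9, rose from 3.69 ± 0.90 to 113 ± 53.2 CPM (SD, n = 3; log2 change 4.82, SE 0.46, limma adjusted p = 0.000979). IRF8 rose from 34.9 ± 5.73 to 826 ± 228 CPM and SPIB from 27.6 ± 13.7 to 124.7 ± 32.6 CPM (adjusted p = 0.00048 and 0.0235). The call on SPIB was lost in 7 of 22 alternative settings, and in turn without replicates 1 and 2 of bulk and 2 and 3 of LSC (adjusted p = 0.0551, 0.0536, 0.0579 and 0.078). IRF5, which binds MYD88, missed the threshold (log2 change 1.30, adjusted p = 0.19). IRF4 stood at 80.6 ± 103.7 CPM in bulk and 117 ± 34.4 CPM in LSC, with a spread in bulk larger than its mean. JUN did not pass in the reported fit and fell with the block (log2 change -1.39, adjusted p = 0.0476).

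Of 18 induced cytokine and feedback genes 2 rose and none fell. NFKBIZ, an inducible nuclear cofactor of NF-kB, rose from 34.3 ± 3.04 to 95.2 ± 2.87 CPM (log2 change 1.47, SE 0.26, limma adjusted p = 0.0173). That call was lost in 8 of 22 alternative settings, and in turn without replicates 1 and 2 of bulk and 1 and 3 of LSC (adjusted p = 0.0657, 0.0543, 0.0579 and 0.0654). TNFAIP3, a deubiquitinase that restrains the pathway, rose as well, with 10.8 ± 0.97 CPM in bulk and 35.0 ± 13.7 CPM in LSC. The adjusted p was 0.0415 for a log2 change of 1.64 (SE 0.37), and its call was lost in 12 of 22 alternative settings, and in turn without replicates 1, 2 and 3 of bulk and 1 and 3 of LSC (adjusted p = 0.150, 0.0990, 0.0736, 0.0897 and 0.136). SOCS3 and IL10 did not pass in the reported fit and rose with the block, with log2 changes of 2.43 and 1.69 (adjusted p = 0.0152 and 0.0159). NFKBIA, the inhibitor induced by NF-kB, and CD40 had log2 changes of 0.71 and 1.65 and did not pass in either fit.

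**Figure D4:**
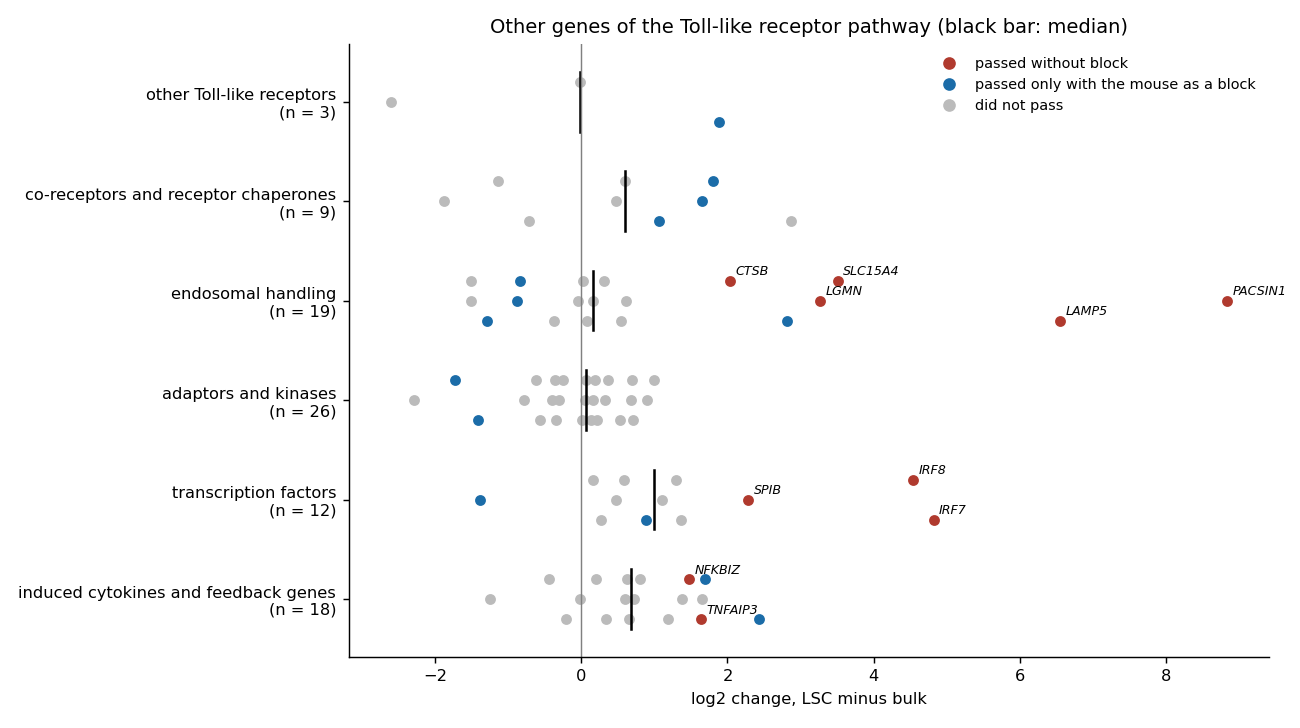
Log2 change from bulk to LSC on the horizontal axis for the 87 tested genes of 6 pathway lists, 1 point per gene, with a black bar at each list's median. Genes that passed without the block are red and named, and all 10 lie to the right of 0; the adaptors and kinases have no red point and a median of 0.06.

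Genes with a profile most like a member were ranked by Pearson's r of log2 CPM over the 6 libraries, among 13143 genes. The 6 libraries share 3 mice and 2 gates, so high values are common, and they are given as a description. For TLR7 the closest were PIK3CG, MPEG1 and IDS (r = 0.998, 0.996 and 0.995), with 178 genes above 0.95. PIK3CG encodes a PI3-kinase of leukocytes and MPEG1 a pore-forming protein of myeloid cells. For TLR9 they were NIPSNAP3A, MREG and ANKRD10 (0.999, 0.995 and 0.993). For TLR4 they were HSPA4L, RHOBTB3 and RYK (0.996, 0.993 and 0.993), and for TLR8 CD96, IFT88 and WDR35 (0.998, 0.989 and 0.987).

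**Figure D5:**
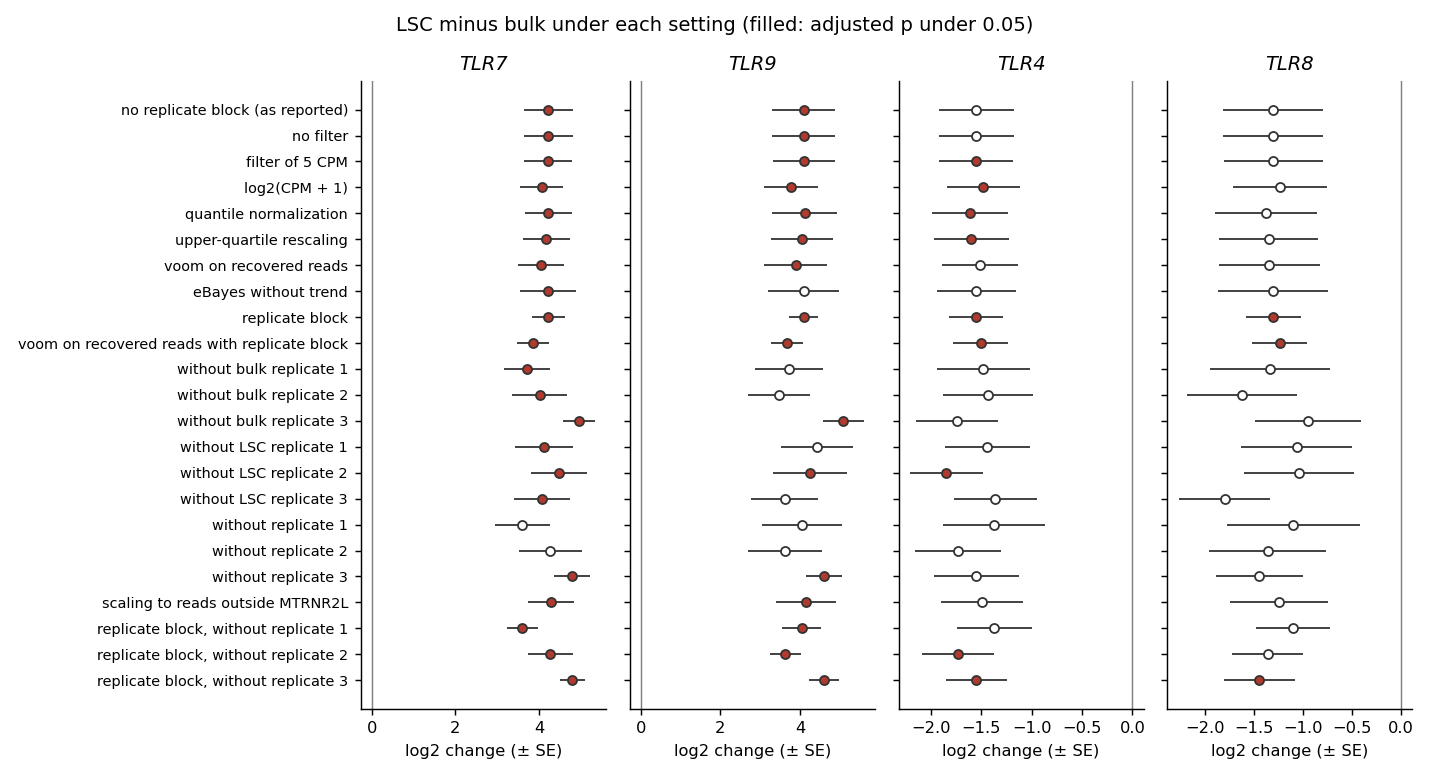
Log2 change from bulk to LSC (horizontal axis, with SE) of TLR7, TLR9, TLR4 and TLR8 as reported and under 22 alternative settings (vertical axis), filled where the adjusted p was under 0.05. No setting changes the side of 0: TLR7 ranges from 3.60 to 4.95, TLR9 from 3.48 to 5.08, TLR4 from -1.85 to -1.36 and TLR8 from -1.80 to -0.95.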

How the data were processed

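RNA-seq of 3 bulk and 3 LSC libraries was read from the authors' deposited table of log2 CPM values. Its columns of the authors' own comparison hold a log2 fold change, a likelihood ratio score and p-values with false discovery rates, per the file headers. RSEM, Bowtie2, edgeR and build hg19 are named in the submitters' processing notes, without roles. The organism label names the mouse host, while the gene symbols are human. All values gave whole reads within 0.1 read. LSC were set against bulk in R 4.3.3 by limma 3.58.1 (trended empirical Bayes), unblocked. Genes under 1 CPM in more than 3 libraries were dropped, which left 13755, and a Benjamini-Hochberg adjusted p under 0.05 was called. The code was tested on simulated data. Numbers pair the libraries, since bulk and LSC with 1 number came from 1 mouse. Once group means were subtracted, the paired libraries correlated at 0.33, 0.35 and 0.30, and a fit with the mouse as a block was also made. Members and lists were chosen with earlier results of these data known. Named pathway genes are those called without the block and up to 4 more per list with the largest moderated statistic; others were chosen after their values were seen. The libraries of a group came from separate mice.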

Additional observations from a re-analysis of the deposited data

How the results depend on the processing

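No member changed sign under any of 22 alternatives (21 for UNC93B1, which a filter of 5 CPM removes). Genes higher and lower numbered 373 and 183 as reported, 1135 and 1060 with the replicate block, 1216 and 1217 with voom and the block, and 197 and 54 without the variance trend, while log2(CPM + 1) gave 302 lower. The share of calls that were higher was 67.1% as reported and 51.7% with the block. Members higher numbered 1 without the trend. Members lower numbered 1 under a filter of 5 CPM, log2(CPM + 1), quantile or upper-quartile scaling, 2 with the replicate block and 3 with voom and the block. Leaving out libraries or mice gave 37 to 346 genes higher, 0 to 169 lower, 0 to 2 members higher and 0 to 1 lower. With the block on 2 mice, added after seeing the data, genes higher numbered 386, 444 and 1747, genes lower 344, 296 and 1567, members higher 2 to 5 and members lower 0 to 2 (without mouse 1, 2 and 3). Set against the reported fit, the replicate block changed the calls of TLR4 and TLR8. With voom it also added TLR2 (adjusted p = 0.0406), and on mice 1 and 2 alone UNC93B1 (0.0475), IRAK1 (0.00825) and IRAK4 (0.0196). TLR6 turned positive without bulk replicate 3 (0.17), LSC replicate 1 (0.06), LSC replicate 3 (0.12) or mouse 3 (0.31, also with the block), and with scaling to reads outside MTRNR2L (0.0375), with a range of -0.24 to 0.31 when libraries or mice were left out; the cause was not tested. Depth limits UNC93B1 most, with 11 reads in bulk replicate 1.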
